A study of Homo sapiens with 9 samples.

Results

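The alpha-globin cluster lies near the tip of the short arm of chromosome 16 and holds, from the upstream side, HBZ (zeta-globin), HBM (mu-globin), HBA2 and HBA1 (the alpha-globin pair) and HBQ1 (theta-globin), with the gene NPRL3 upstream of them. Its accessible sites were taken from the ATAC-seq peak lists of 9 libraries of K562 cells as every listed row whose centre lay between positions 90000 and 240000 of chromosome 16 (GRCh37). The rule took 187 of the 2165951 rows in all lists. Rows were assigned to the globin start sites or to the upstream segment from 135000 to 190000, most of which is NPRL3.

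ATAC-seq marks open chromatin through insertion of sequencing adapters by the Tn5 transposase, and K562 is an erythroleukaemia line grown from a chronic myeloid leukaemia. The question was whether loss of STAG2, a subunit of the cohesin ring that holds DNA loops, changes accessibility. The 3 wild type libraries came from parental K562 cells. The 3 heterozygous libraries came from 1 CRISPR-Cas9 edited line with the STAG2 R614* stop mutation on one copy (+/-), and the 3 homozygous libraries from 1 edited line with both copies mutated (-/-). Homozygous cells grew attached and were released with trypsin, so genotype, line and mode of growth cannot be told apart here. Nothing in the labels says that replicates were separate cultures, so the p-values measure only the spread between these libraries.

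In erythroid cells the globin genes are driven from a distance by enhancers that sit inside the introns of NPRL3 and just beyond it, known as MCS-R1 to MCS-R4 in the order in which they lie towards the globins. MCS-R2 is the strongest of them and carries sites for GATA1 with TAL1, for NF-E2 and for KLF factors. NPRL3 itself encodes a subunit of the complex that restrains mTORC1 signalling. HBZ is the embryonic alpha-like gene and is active in K562 cells, HBA1 and HBA2 encode the fetal and adult chain, and CTCF and cohesin bound on both sides of the cluster keep the contacts of the enhancers within it.

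The sequence of a strong site inside NPRL3 is shown because it was listed in all 9 libraries and held a loose core of the CTCF motif. Holding that core was a condition for showing the sequence. It is 300 bases of the plus strand of GRCh37, printed 5′ to 3′, in intron 9 of NPRL3 at chr16:146965-147264, centred 55.5 kb upstream of the HBZ start. Capitals mark the KLF string CCACCC and a loose core of the CTCF motif, chosen after the lists had been seen, both searched on either strand.
NPRL3 intron 9: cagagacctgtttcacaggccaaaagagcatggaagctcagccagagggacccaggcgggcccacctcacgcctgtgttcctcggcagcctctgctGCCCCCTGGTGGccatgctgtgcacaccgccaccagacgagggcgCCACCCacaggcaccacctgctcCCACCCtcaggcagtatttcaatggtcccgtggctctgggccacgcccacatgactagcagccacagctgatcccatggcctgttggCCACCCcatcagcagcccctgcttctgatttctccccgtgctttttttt
The sequence held 3 KLF strings and 1 loose CTCF string, the latter fixed by how the sequence was chosen. In the middle 300 bases of the 105878 accessible regions of the genome, the KLF string occurred in 29.5% and the loose CTCF string in 6.68%. Among the 31 regions of the window, 16 (51.6%) held the KLF string and 2 (6.45%) the loose CTCF string. A stricter form of the CTCF motif was in 0 of the 31 and in 0.0283% of all regions. The 105878 regions were merged from the 50000 strongest rows of each library and searched at their middle. The 31 came from the full lists and were searched around the median centre of their rows with 1 summit, where there were any. The shares of the window and of the genome are therefore not matched. These are matches of letters, not measured binding.

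The lists were not all independent. Wild type replicate 3 and heterozygous replicate 1 had 46.0% of the shorter list's rows at identical coordinates, 7 of them in the window. Wild type replicates 1 and 2 had 23.2%, with 3 in the window, and heterozygous replicates 2 and 3 had 1.17%, with 0 in the window. The other 33 pairs of lists had between 0.223% and 0.351%. Values without these lists are given beside the results they touch. Leaving out wild type replicates 1 and 2 together was added after seeing the data, and it leaves 1 wild type library, which is assumed to vary like the other groups. The lists held between 181579 and 319986 rows, the lists give no read counts, and the depth is unknown. Of 8 erythroid start sites, 5 (62.5%) had a row within 1 kb in all 9 lists, among them TAL1, NFE2, EPOR and TFRC, against 60.6% of all 18878 protein-coding start sites, so the count does not mark the cell type. SLC4A1, the band 3 anion exchanger of mature red cells, had a row in 0 lists, and GATA1 and KLF1 were among the 50000 strongest rows of 0 libraries. Among the lymphoid start sites, CD3E and PAX5 had a row in 0 lists, while CD3D, a chain of the T cell receptor complex, had one in 3 wild type, 1 heterozygous and 3 homozygous libraries, each time among the 50000 strongest, and CD79A in 1 heterozygous and 1 homozygous library. Of the 3 hepatic start sites, ALB and APOA2 had a row in 0 lists and TTR in 1 wild type and 2 homozygous libraries.

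The window held 23 rows in each wild type list, 20, 19 and 18 in heterozygous replicates 1 to 3, and 17, 21 and 23 in homozygous replicates 1 to 3. All wild type lists were above all heterozygous lists, while the homozygous lists spanned both. The exact permutation test over the 3 genotypes gave p = 0.129, where the smallest possible p is 0.00357. For heterozygous against wild type lists alone the exact permutation p was 0.1, the smallest that 3 against 3 can give. Joined over the 9 lists, the rows formed 31 regions. Of these, 13 (41.9%) were found in all 9 libraries, against 7.15% of the 738271 regions of the genome, and 9 were found in 1 library. Several of the 13 lie at gene starts, and 60.6% of protein-coding start sites had a row in all 9 lists. The share over all regions is therefore not a matched reference. The map of rows along the window shows the recurrent sites at the same distances from HBZ in every library.

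**Figure D1:**
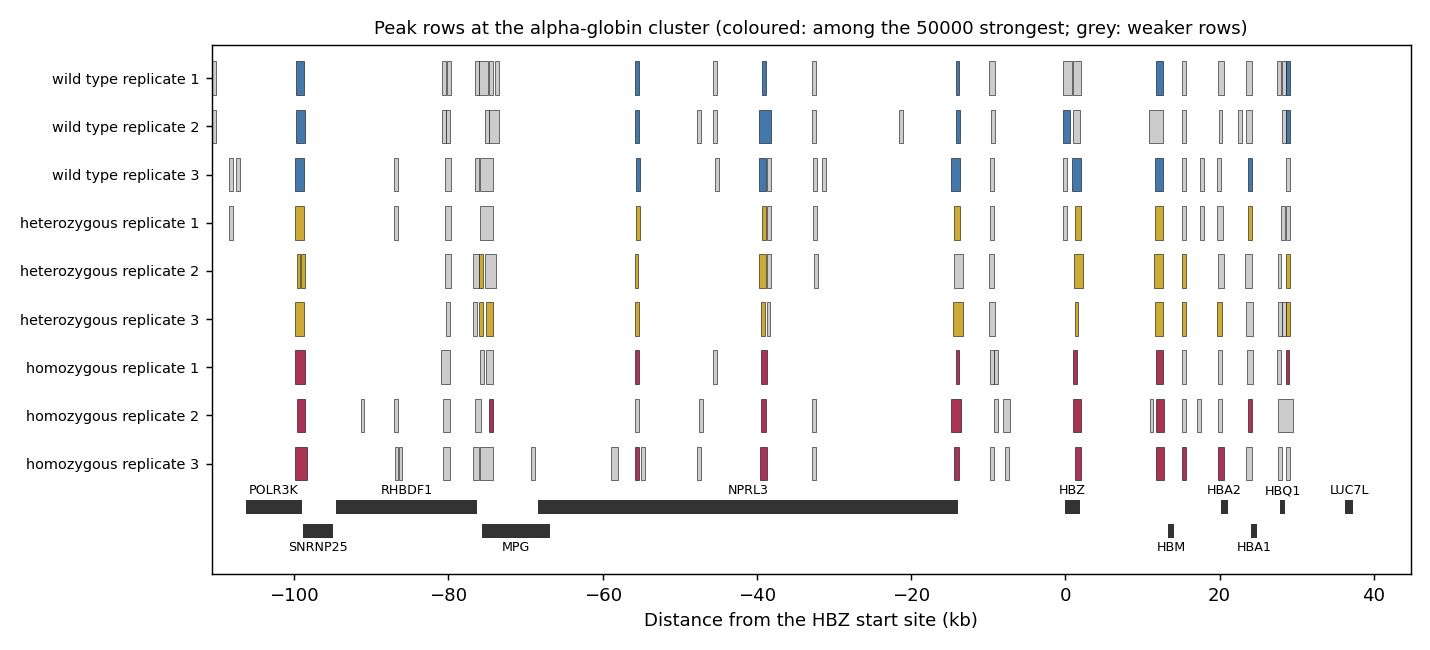
Rows of the 9 peak lists by distance from the HBZ start (x axis, kb), 1 line per library, with rows among the library's 50000 strongest peaks coloured by genotype, weaker rows in grey and gene bodies below. The columns of rows at the NPRL3 sites 55.5 and 39.1 kb upstream and at the NPRL3 promoter recur in all 9 libraries.

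Because lists differ in length, strength was compared among the 50000 rows of each library with the highest −log10 p of the authors' peak caller. A site's percentile is 100 minus its rank as a percent of those 50000, and 0 where it is not among them. The window held 6, 6 and 7 such peaks in wild type replicates 1 to 3, 7, 9 and 11 in heterozygous and 7, 7 and 8 in homozygous replicates 1 to 3. The means were 6.33 ± 0.577, 9 ± 2 and 7.33 ± 0.577 (SD, n = 3 each), with overlapping ranges. The genotypes did not pass the exact permutation test (p = 0.0786; Benjamini-Hochberg adjusted over the 3 measures of the window, 0.236). Without heterozygous replicate 1 the exact p was 0.0107, and without wild type replicate 3 as well it was 0.00952, with heterozygous libraries the highest. Lists that share rows counted as 1 source gave a homozygous minus other difference of -0.917 peaks (exact permutation p = 0.6). The peaks covered 5.12 ± 1.21 kb in wild type, 6.51 ± 1.46 kb in heterozygous and 5.90 ± 0.967 kb in homozygous libraries (SD, n = 3 each; exact permutation p = 0.439). Chromosome 16 outside the window held 1228 to 1278 such peaks in wild type, 1225 to 1298 in heterozygous and 1306 to 1341 in homozygous libraries (exact permutation p = 0.0786).

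**Figure D2:**
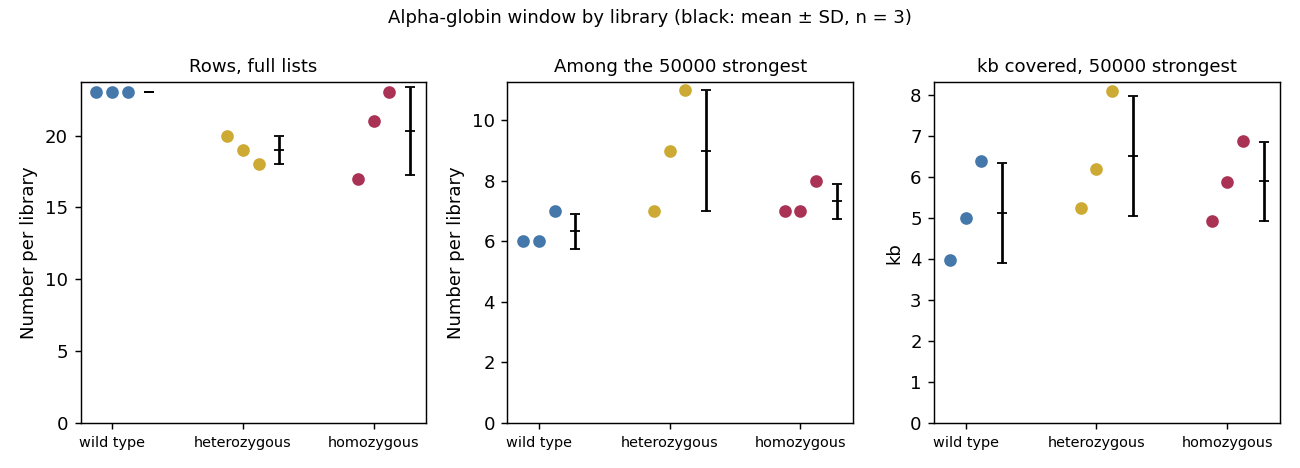
Rows in the full lists, peaks among the 50000 strongest and kilobases covered by those peaks in the window (y axes), with 1 point per library and the mean ± SD of 3 libraries in black. Each wild type library had 23 rows, as did homozygous replicate 3, and heterozygous libraries had 7 to 11 strong peaks, with the ranges of strong peaks overlapping between genotypes.

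The upstream segment held 3 strong peaks in each wild type library, 3, 2 and 3 in heterozygous and 3, 2 and 3 in homozygous libraries (exact permutation p = 1). These were the intron 9 site, the intron 5 site and the NPRL3 promoter. Among only the 20000 strongest peaks, a setting that was 1 of several alternatives, the segment held 2, 1 and 0 in wild type, 0, 0 and 0 in heterozygous and 3, 2 and 2 in homozygous libraries. All homozygous libraries were thus at or above the highest wild type library, and above all heterozygous libraries (exact permutation p = 0.0429, not adjusted). The whole window at that depth held 2, 2 and 0, then 0, 1 and 0, then 4, 4 and 2 (exact permutation p = 0.0464, not adjusted). Neither count passed without wild type replicate 3 and heterozygous replicate 1, at exact p = 0.0857 for the segment and 0.124 for the window, or without wild type replicates 1 and 2, at exact p = 0.0571 for both.

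The site in intron 5 of NPRL3, centred at 163560, 39.1 kb upstream of the HBZ start and where MCS-R2 is known to be, was 1 of 2 regions of the window among the 50000 strongest peaks in all 9 libraries. Its percentile was 90.3, 26.3 and 6.95 in wild type replicates 1 to 3. It was 54.8, 15.97 and 30.2 in heterozygous and 63.1, 76.9 and 52.8 in homozygous replicates 1 to 3. Wild type libraries held both the highest and the lowest value, and the homozygous libraries lay between them. The fold enrichment over local background given by the authors' caller was 10.7, 5.13 and 4.88 in wild type, 7.02, 4.76 and 5.41 in heterozygous and 6.15, 6.68 and 6.29 in homozygous libraries. Mean percentiles were 41.2 ± 43.6, 33.6 ± 19.6 and 64.3 ± 12.1 (SD, n = 3 each; exact permutation p = 0.418, adjusted over all regions 0.957). The row was a join of several peaks in 6 of 9 libraries, and joined rows carry averaged values. Ranking joined rows by the sum over their summits in place of the average, an alternative chosen after seeing the data, gave 60.5, 74.4 and 32.7 in wild type, 20.9, 44.6 and 1.16 in heterozygous and 81.3, 76.2 and 74.2 in homozygous libraries. On that scale the homozygous libraries were above all others except wild type replicate 2, which lay just above homozygous replicate 3 (exact permutation p = 0.0429, not adjusted). Over the 20 alternative settings with a test, the p at this site ran from 0.0429 to 0.693 and passed 0.05 in 1. Without wild type replicates 1 and 2 it was 0.0857. A weaker neighbour, with row centres from 164146 to 164254, was listed as a row of its own in wild type replicate 3 and in the 3 heterozygous libraries.

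The intron 9 site, with the KLF strings and the loose CTCF string, was present in all 9 full lists. Its percentile was 27.3, 24.3 and 21.1 in wild type, 29.7, 12.7 and 30.2 in heterozygous and 67.7, 0 and 66.1 in homozygous replicates 1 to 3. Homozygous replicate 2 stood apart: its row there ranked 79355, outside the 50000 strongest, at a fold enrichment of 3.62 against 6.72 and 7.58 in homozygous replicates 1 and 3. The means were 24.2 ± 3.09, 24.2 ± 9.95 and 44.6 ± 38.7 (SD, n = 3 each; exact permutation p = 0.475). Without homozygous replicate 2 the exact p was 0.0357 (not adjusted), with homozygous libraries the highest, which was the 1 of 20 alternative settings that passed 0.05.

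The other known upstream elements were weak in these lists and never among the 50000 strongest. A row at 155183, 47.5 kb upstream of the HBZ start where MCS-R1 is known to be, was listed in wild type replicate 2 and homozygous replicates 2 and 3. At 170068, 32.6 kb upstream and at the position of MCS-R3, there was a row in 3 wild type, 2 heterozygous and 2 homozygous libraries. At 193149, 9.49 kb upstream and at the position of MCS-R4, all 9 libraries had a row, at full-list percentiles from 1.41 in homozygous replicate 2 to 75.5 in wild type replicate 2. A row at 157224 in intron 7, whose centre carries the loose CTCF string, was found in 3 wild type, 0 heterozygous and 1 homozygous libraries. That pattern, 3 of 3 wild type and 0 of 3 heterozygous, was met by 1 of 25 regions of the window and by 0.851% of regions of the genome, and its reverse by 0 of 25 and by 0.157%. Wild type replicates 1 and 2 listed that row at identical coordinates, and without them the wild type group is the 1 row of replicate 3. A row at 195062, between NPRL3 and HBZ, was found in homozygous replicates 2 and 3 and in no other library.

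The NPRL3 promoter, which spans the first exon, had a mean percentile of 56.8 over the 9 libraries, the highest in the upstream segment and close to the 56.2 of the POLR3K and SNRNP25 promoters. Its percentile was 82.1, 91.7 and 32.3 in wild type, 60.0, 0 and 18.6 in heterozygous and 89.7, 75.4 and 61.9 in homozygous replicates 1 to 3. The homozygous libraries were all above the heterozygous libraries, by a narrow margin between 61.9 and 60.0, and overlapped the wild type. It was the 1 of 12 regions with homozygous percentiles all above heterozygous (7.52% of regions of the genome), and 0 of 12 had the reverse (8.98%). The means were 68.7 ± 31.9, 26.2 ± 30.7 and 75.7 ± 13.9 (SD, n = 3 each; exact permutation p = 0.118, adjusted over all regions 0.672). Without wild type replicate 3 and heterozygous replicate 1 the exact p was 0.0381 (not adjusted), with heterozygous libraries the lowest, and this was the 1 of 20 alternative settings that passed 0.05. With joined rows ranked by their sum the ranges overlapped (exact permutation p = 0.696), and without wild type replicates 1 and 2 the exact p was 0.114. Over the 9 libraries the start-site regions with the most similar percentiles were those of SMDT1, FGFRL1 and MYPOP, at Euclidean distances of 33.4, 36.5 and 44.9 percentile units.

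HBZ was the member gene whose start site differed most in presence between genotypes. In the full lists a row lay within 1 kb of its start site, at 202643, in all 3 wild type libraries and in heterozygous replicate 1, and in 0 of the other 5. Its percentile within the full list was 73.2, 84.7 and 56.9 in wild type replicates 1 to 3 and 36.3 in heterozygous replicate 1. Homozygous replicate 3, which has the longest of all lists, had no row there. Presence in 3 of 3 wild type and 0 of 3 homozygous libraries was met by 1 of 31 regions of the window and by 2.35% of regions of the genome, and the reverse by 0 of 31 and by 0.958%. The 4 libraries with a row are the members of the 2 pairs of lists that share most rows. The HBZ rows were not identical but lay close together within each pair. They began at 202373 in wild type replicate 3 and 202379 in heterozygous replicate 1, and at 202389 and 202395 in wild type replicates 1 and 2. Counted as 1 source per pair, 2 of 4 sources without the homozygous mutation had the row. The 2 sources without it were heterozygous replicates 2 and 3. The difference in share was 100% between wild type and homozygous libraries and 50% between those 4 sources and the homozygous libraries, which are unlike comparisons. The row was weak: among the 50000 strongest it was present in wild type replicate 2 alone, at a percentile of 7.18.

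Downstream of it, a region over exon 2 of HBZ from 203478 to 204929 was present in all 9 full lists. Its percentile among the 50000 strongest was 0, 0 and 7.06 in wild type, 35.3, 24.04 and 24.4 in heterozygous and 1.004, 35.4 and 2.07 in homozygous replicates 1 to 3. All heterozygous libraries were above all wild type libraries, and 1 homozygous library reached the heterozygous level. This was the 1 of 13 regions with heterozygous percentiles all above wild type, a pattern met by 3.67% of regions of the genome. It held without the pair of lists that share most rows, at 0 and 0 against 24.04 and 24.4 (exact permutation p over the 3 genotypes = 0.267). The rows of wild type replicates 1 and 2 ranked 56372 and 56108, past the cut of 50000. Those 2 lists share 23.2% of the shorter list's rows. With all libraries the exact permutation p over the 3 genotypes was 0.111 (adjusted over all regions 0.646). Over the 20 alternative settings with a test the unadjusted p ran from 0.00714 to 1 and passed 0.05 in 2, ranking by fold enrichment (0.00714) and leaving out homozygous replicate 2 (0.0357). Without wild type replicates 1 and 2 it was 0.286. Of its 7 rows among the 50000 strongest 5 were joins, and with joined rows ranked by their sum the order changed. The percentiles were then 56.2, 28.1 and 74.8 in wild type, 67.4, 67.1 and 0 in heterozygous and 0, 73.3 and 57.5 in homozygous libraries, with overlapping ranges (exact permutation p = 0.893). In the full lists the ranges also overlapped (exact permutation p = 0.789).

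**Figure D3:**
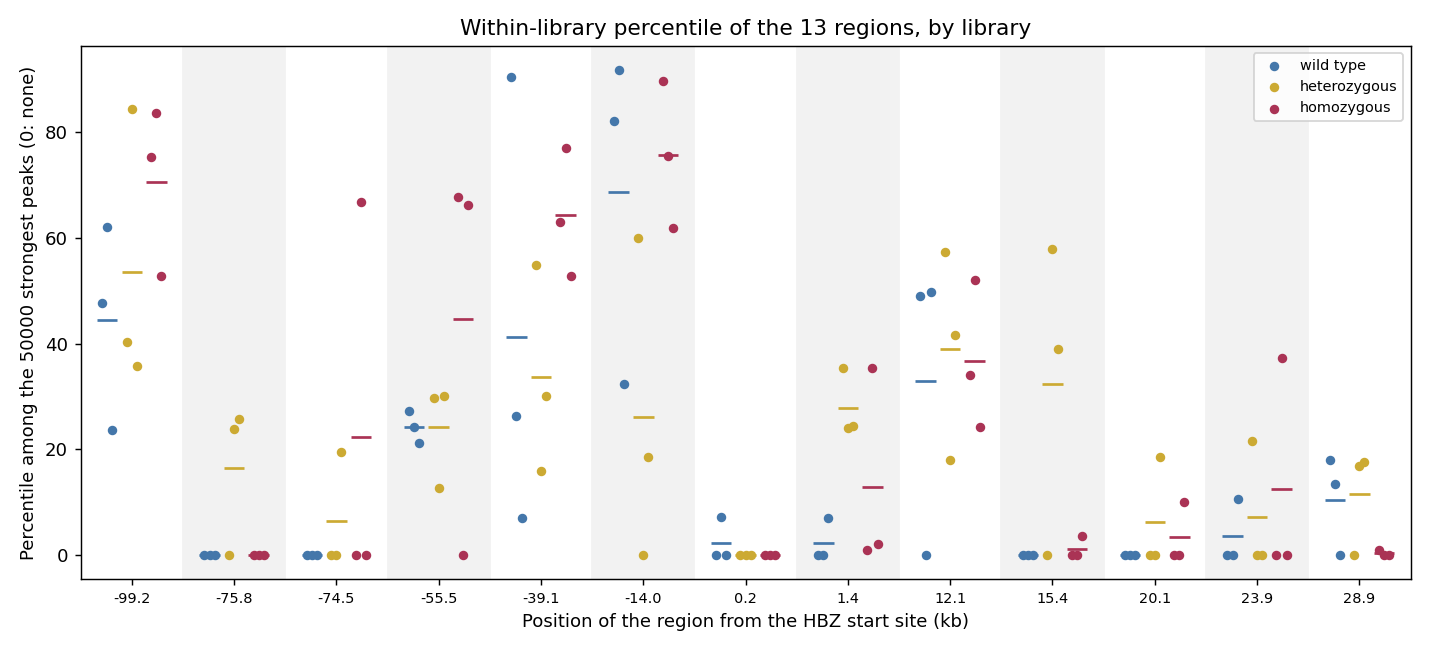
Percentile among each library's 50000 strongest peaks (y axis, 0 where the region is not among them) for the 13 strong regions of the window, ordered by position from the HBZ start (x axis, kb), with 1 point per library and a line at each genotype's mean. At the NPRL3 promoter (-14.0) the homozygous points lie above the heterozygous ones, and at exon 2 of HBZ (1.4) the heterozygous points lie above the wild type ones.

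Beyond HBZ lies HBZP1, an unprocessed pseudogene copied from it. Its region was among the 50000 strongest peaks in 8 of 9 libraries, at percentiles of 49.0, 0 and 49.7 in wild type, 57.4, 17.99 and 41.6 in heterozygous and 34.0, 52.0 and 24.2 in homozygous replicates 1 to 3. The genotypes overlapped fully (exact permutation p = 0.925). Sequence copies limit what can be said of single globin genes. Of the stretches of 100 bases, the length of a read, 40.8% in the HBZ exon 2 region and 40.7% in the HBZP1 region occurred more than once in the window, and the pair had 552 of them in common. The HBZ start region had 19.3% repeated. In the HBA2 and HBA1 regions the shares were 76.9% and 66.6%, with 635 in common, against 3.77% over the whole window and 0% at the NPRL3 intron 5 and intron 9 sites. How reads that fit several places were treated is not given in the sources used here, so the signal of HBA1 and HBA2, and of HBZ and HBZP1, is uncertain in its split.

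The alpha-globin promoters were listed in every library but seldom among the 50000 strongest peaks. Both HBA2 and HBA1 had a row within 1 kb of their start in all 9 full lists. Among the 50000 strongest peaks, HBA2 appeared in heterozygous replicate 3 at a percentile of 18.6 and in homozygous replicate 3 at 10.1. HBA1 appeared in wild type replicate 3 at 10.6, in heterozygous replicate 1 at 21.6 and in homozygous replicate 2 at 37.3. No genotype stood apart at either gene (exact permutation p = 1 for both). In the full lists the percentiles ran from 4.27 (homozygous replicate 1) to 85.9 (homozygous replicate 3) for HBA2 and from 56.6 (homozygous replicate 1) to 84.5 (heterozygous replicate 1) for HBA1. HBQ1 had a row within 1 kb of its start in 2 wild type, 3 heterozygous and 3 homozygous libraries. A site at the downstream end of HBQ1, centred at 231529 and 1071 bp from its start, had percentiles of 18.02, 13.4 and 0 in wild type, 0, 16.9 and 17.6 in heterozygous and 1.07, 0 and 0 in homozygous libraries (exact permutation p = 0.357). Without wild type replicate 3 and heterozygous replicate 1, the 2 libraries at 0 outside the homozygous line, the exact p was 0.0286 (not adjusted), with homozygous libraries the lowest, and this was the 1 of 20 alternative settings that passed 0.05. With joined rows ranked by their sum, homozygous replicate 2 was at 73.5 and the other 8 libraries at 0, so that the homozygous mean was the highest (exact permutation p = 1). HBM had no row within 1 kb of its start in any library, the nearest row centre lying 1040 bp away.

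A site between HBZP1 and HBA2, 2063 bp from the HBM start, was present in all 9 full lists. It was among the 50000 strongest in heterozygous replicates 2 and 3, at percentiles of 57.8 and 39.1, and in homozygous replicate 3 at 3.69, and in no wild type library. Heterozygous replicate 1, the library that shares rows with wild type replicate 3, was at 0. The exact permutation p was 0.25 with all libraries and 0.0357 without heterozygous replicate 1 (not adjusted). Leaving out that library was the 1 of 20 alternative settings that passed the threshold at this site. Without wild type replicate 3 as well the exact p was 0.0952, and with the 100000 strongest peaks of all libraries it was 0.757. The 9 row centres fell within 11 bp of each other, against a median range of 68 bp over the 6466 regions with a single-summit row in all 9 libraries. Of those regions 6.09% were as tight or tighter. At the NPRL3 intron 9 site the centres ranged over 187 bp, and 94.0% of those regions were as tight or tighter.

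**Figure D4:**
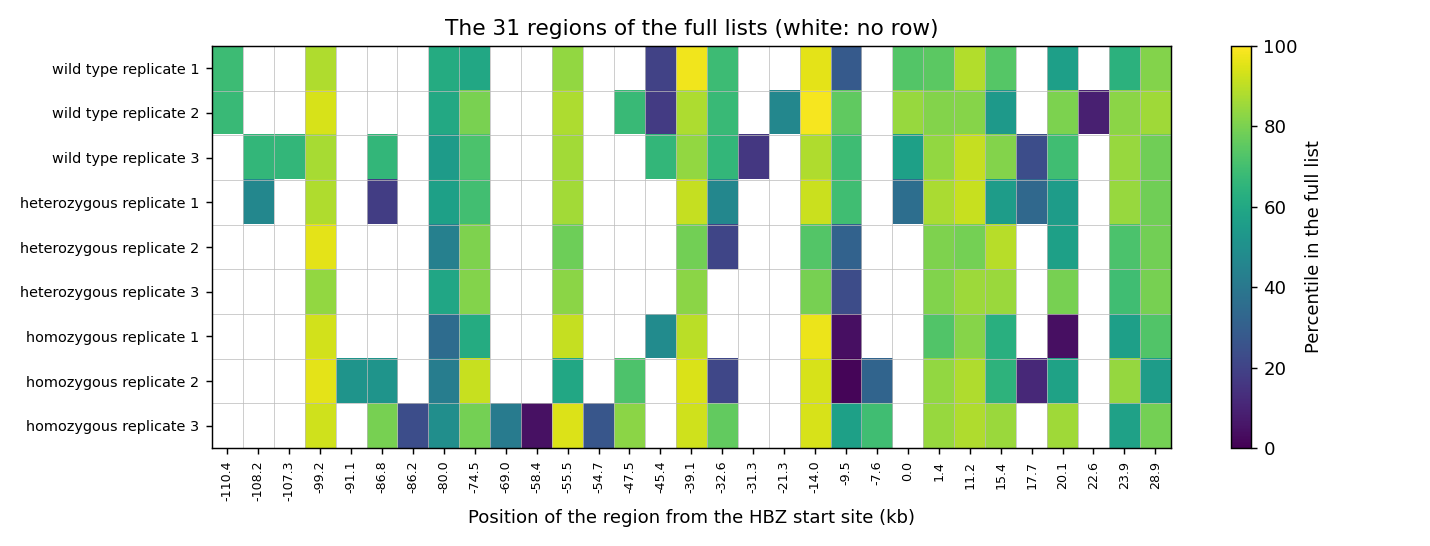
Percentile within the full list (colour, 0 to 100, white where the library has no row) for the 31 regions of the window, ordered by position from the HBZ start (x axis, kb), 1 line per library. The HBZ start (0.0) has a row in the wild type libraries and heterozygous replicate 1, and 13 columns are filled in all 9 libraries.

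The neighbouring housekeeping promoters gave a reference within the window. The promoter pair of POLR3K (an RNA polymerase III subunit) and SNRNP25 (a protein of the minor spliceosome) was the other region among the 50000 strongest in all 9 libraries. Its percentile was 47.7, 62.0 and 23.6 in wild type, 40.2, 84.4 and 35.8 in heterozygous and 75.2, 83.5 and 52.8 in homozygous replicates 1 to 3, with overlapping ranges (exact permutation p = 0.361). Wild type replicate 3 was the lowest of its group here as at the NPRL3 promoter and the intron 5 site. MPG, a DNA repair glycosylase, and RHBDF1, an inactive rhomboid protease, had start-site rows in all 9 full lists. The site at 126869 near MPG was among the 50000 strongest in heterozygous replicates 2 and 3 alone, at percentiles of 23.8 and 25.75. Its exact permutation p was 0.25 with all libraries and 0.0357 without heterozygous replicate 1 (not adjusted), the 1 of 20 alternative settings that passed the threshold. Without wild type replicate 3 as well it was 0.0952.

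Over the 13 strong regions of the window, the homozygous mean percentile was above the wild type mean in 10 and below it in 2, with a median difference of 6.998 percentile units against 0 over all regions of the genome. The heterozygous mean was above the wild type mean in 9 and below it in 4, with a median difference of 6.09 against 0. Over the genome 47.6% of regions were above and 42.4% below for homozygous, and 40.8% above and 36.3% below for heterozygous libraries. Both comparisons share the wild type libraries. A region entered the set through a strong peak in any library, which fixed the side of some regions in advance. The sites at 126869 and 128142 near MPG, the site between HBZP1 and HBA2, and HBA2 were at 0 in all wild type libraries. These could not fall below wild type, and the HBZ start, strong in wild type replicate 2 alone, could not lie above it. The counts and medians are therefore no test of a shift. No region of the window passed an unadjusted exact p of 0.05, which 11.1% of the 105878 regions did. Adjusted p-values in the window ran from 0.646 to 1, and the smallest over the genome was 0.374. No region of the window was among the strong peaks of all 3 libraries of one genotype and of 0 of the 3 of another. For homozygous against wild type libraries that pattern was met by 2.70% (gained) and 3.46% (lost) of regions of the genome, with 12 regions of the window tested. For heterozygous against wild type libraries it was met by 0.393% (gained) and 0.504% (lost), with 13 tested, and for homozygous against heterozygous libraries by 3.16% (gained) and 3.41% (lost), with 12 tested. In the full lists the last comparison gave 0 of 26 regions of the window in either direction, against 1.46% (gained) and 1.29% (lost). Percentiles did not separate homozygous from wild type libraries in any of those 12, while 7.38% of regions were all above and 9.32% all below.

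The list of alpha-globin regulators held 18 genes, of which all 18 were matched. AHSP acts on alpha-globin protein. The others were listed as regulators of the cluster, and not all of them act at the enhancers. In the full lists 15 had a row within 1 kb of their start in all 9 libraries, among them TAL1, LMO2, LDB1, NFE2, CTCF and the cohesin genes RAD21, SMC3, SMC1A and STAG1. Against that, 60.6% of 18878 protein-coding start sites had one in all 9. AHSP, the chaperone of free alpha-globin, had a row in 3 wild type, 1 heterozygous and 0 homozygous libraries, a change from 3 of 3 to 0 of 3 that 0.694% of start sites showed. KLF1, an erythroid activator that binds CCACCC, had a row in 0 wild type, 1 heterozygous and 3 homozygous libraries, which 0.747% of start sites showed. Neither was among the 50000 strongest peaks in any library. GATA1 had a row in 3 wild type, 2 heterozygous and 3 homozygous libraries.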

How the data were processed

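ATAC-seq peaks were listed separately for each of 9 libraries, from 50000 cells and 100 bp single-end reads per the labels' protocols. Per the submitters' processing notes, cutadapt, Bowtie2 2.2.9, Picard and MACS2 2.1.0 were used with hg19/GRCh37. Whether reads were shifted for the Tn5 offset is not given in the sources used here. Each deposited row carries a fold enrichment, read as a linear ratio, and the −log10 of a p-value and of a q-value as the authors' caller gave them. The deposited score and summit offset columns were not used as measurements. Rows have 500 bp, and 17.2% to 19.2% per list are longer joins of several summits with averaged values. The lowest −log10 p was about 2 in each list, so weaker sites are not listed. 0 rows ran past a GRCh37 chromosome end.

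Rows on chromosomes 1 to 22 and X were ranked within each library by −log10 p, and the 50000 highest were merged over libraries at 1 bp overlap. Library values were compared by exact permutation of libraries over the 3 genotypes (280 assignments, smallest p 0.00357), with the between-genotype sum of squares as the statistic, so that either direction counts. Pairs of 3 against 3 cannot go below 0.1. Region p-values were adjusted by the Benjamini-Hochberg method over all regions. Tests were checked on simulated data. Start sites are MANE transcripts of GENCODE release 44 mapped to GRCh37. Named are the member genes, every region of the window, neighbouring start sites and the 3 start-site regions most alike the strongest upstream region. Some sequences and 2 marker genes are not reported here, 1 of which is counted in its list. RefSeq promoters matched 2 of 6 members and are not shown. Analyses used Python 3.11.15, numpy 2.4.6 and pandas 2.3.3.

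The members, gene lists and strings were chosen with earlier results of these data known. The position of each sequence was first the median centre of all single-summit rows. It was changed, after the sequences had been seen, to that of rows among the 50000 strongest, which moved the intron 5 position off a weaker neighbour. More measures per library were computed than are tested here, and the others were not used. One of them, the share of a library's window rows that were among its 50000 strongest, gave an unadjusted exact permutation p of 0.0393, with the heterozygous lists the highest, and was dropped because its denominator follows list length. Alternatives were the number of peaks, the ranking value, a q threshold, overlap rules, left-out libraries, shared lists as 1 source, and a replicate block.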

Additional observations from a re-analysis of the deposited data

How the results depend on the processing

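Homozygous minus wild type peaks in the window, 1 in the values reported, was -2.67 with the full lists, -2.67 with the 100000 strongest peaks and 2 with the 20000 strongest. It was 1.33 without wild type replicate 3 and heterozygous replicate 1. The exact p over the 3 genotypes, which does not test these differences, was 0.0464 and 0.00952 in the last pair of settings, with heterozygous libraries the highest in the second. Homozygous minus other was -0.917 with shared lists as 1 source. Kilobases covered, 0.778 as reported, became -1.16 with the full lists and -1.47 with the 100000 strongest. The difference was -0.491 without wild type replicates 1 and 2, a setting added after seeing the data. With shared lists as 1 source, homozygous minus other, which takes in heterozygous libraries, was -0.25. For the upstream segment, -0.333 as reported, the values were 1.33 with the 20000 strongest, 1 with a −log10 q of at least 5 and 0.667 with joined rows ranked by their sum, the last chosen after seeing the data. Regions of the window at an unadjusted exact p of 0.05 or less, 0 as reported, were 1 with the full lists, 1 ranked by fold, 1 ranked by the sum, and 2 without the pair of lists that share most rows. The cause of these changes was not tested. Leaving out each library in turn gave 0.667 to 1.33 peaks in the window, where 1 of the 9 settings passed the threshold (without heterozygous replicate 1, exact p = 0.0107), 0.203 to 1.41 kb covered, -0.5 to 0 peaks in the segment, and 0 to 2 regions, with 2 without heterozygous replicate 1 or without homozygous replicate 2.

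Over the 13 regions and all settings, 9 of 260 values passed an unadjusted p of 0.05, and the sign of homozygous minus wild type differed from the reported one in 23. For shared lists as 1 source, the sign counted was that of homozygous minus other. The share of libraries with a row at the HBZ start was 100 percentage points higher in wild type than in homozygous libraries. The difference was 33.3 with the 50000 strongest and 66.7 with the 100000 strongest or a coverage of 50% of the region. It was 0 with the 20000 strongest or the q threshold. With shared lists as 1 source it was 50, but for all sources without the homozygous mutation, heterozygous ones included, against homozygous libraries. Replicate numbers do not pair the libraries: same-numbered deviations correlated between -0.305 and 0.178, 1 of 9 over 0.1, and 4 of 9 libraries correlated best with their own number. With a replicate block the difference in kilobases covered between homozygous and wild type stayed at 0.778. The exact permutation p over the 3 genotypes was 0.0278, the smallest that the 36 assignments allow, with heterozygous libraries the highest. Without read counts, no limit from depth could be computed, and a missing row says only that no peak was called.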
